A study of Caenorhabditis elegans with 4 samples.

Results

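The peaks described here are the sites on chromosome IV where DPY-30 was called bound in Caenorhabditis elegans embryos by ChIP-seq, the sequencing of DNA that an antibody pulls down with its target protein. They were taken as all chromosome IV entries of the peak list deposited for the series as a whole, which gave 369 of the 2101 peaks on the 6 nuclear chromosomes. The libraries were 2 ChIP libraries, made with an affinity-purified polyclonal rabbit antibody to DPY-30, and 2 input libraries. All came from embryos of mixed stages of the wild-type strain N2, the usual laboratory reference, from a population of males and hermaphrodites kept at 20 °C and bleached out of adults grown in liquid culture. Each ChIP library had a peak list of its own, with 146 peaks on IV in replicate 1 and 161 in replicate 2, whereas no file of the inputs was analysed here and their part in the peak calls is not stated. Separate cultures are not stated for the replicates, which may therefore differ for technical reasons alone, and peaks hold no expression values against which the stage could be checked.

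DPY-30 is a small subunit shared by several chromatin complexes. In C. elegans it works with the dosage compensation complex, which acts on the X chromosomes of hermaphrodites, and with COMPASS, the complexes that place methyl marks on histone H3 near the starts of active genes on every chromosome. An autosome such as IV therefore offers a view of DPY-30 away from the chromosome that dosage compensation targets. Chromosome IV is also known for its piRNA genes, the templates of short RNAs that the Argonaute protein PRG-1 uses to silence transposons and other foreign sequences in the germ line. In the RefSeq gene table of the WBcel235 assembly, 14714 of 15363 nuclear piRNA genes (95.8%) were on IV, against 3281 of 19971 protein-coding genes (16.4%). The piRNA genes lie mainly in a pair of stretches, of which the left one was taken here as 4.5 to 7 Mb. The right one was taken as the 3.7 Mb that end 0.294 Mb before the right tip, or 77.2 to 98.3% of the chromosome's length. These edges are approximate and were not set against a gene annotation of the build of the peaks.

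Chromosome IV carried DPY-30 peaks in proportion to its length. Its density was 21.1 peaks per Mb, against 20.3 per Mb over the other 4 autosomes (I, II, III and V). The 369 peaks were 17.6% of the list (exact 95% interval 15.96 to 19.3%), while IV made up 17.5% of the nuclear genome length (two-sided exact binomial p = 0.909, Benjamini-Hochberg adjusted p = 0.909 over the 7 tests made). The peaks covered 142 kb, or 0.814% of the chromosome, against 0.866% of the other autosomes. The test assumes that peaks fall independently, which those on IV did not, and its p-value describes 1 list.

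Most IV peaks were narrow and low in score. Width ranged from 146 to 5189 bp with a median of 238 bp (quartiles 184 and 375 bp), against a median of 258 bp on the other autosomes. The deposited score, a quantity that no header or label defines, ran from 1.43 to 44.9 on IV with a median of 5.65 (quartiles 3.75 and 9.61). On the other autosomes the median was 5.47 (quartiles 3.75 and 9.33), so the middle of the score range lay close to that of IV. Wider peaks on IV tended to score higher, with a Spearman correlation of 0.50 over the 369 peaks, a description of peaks that share libraries and a caller.

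**Figure D1:**
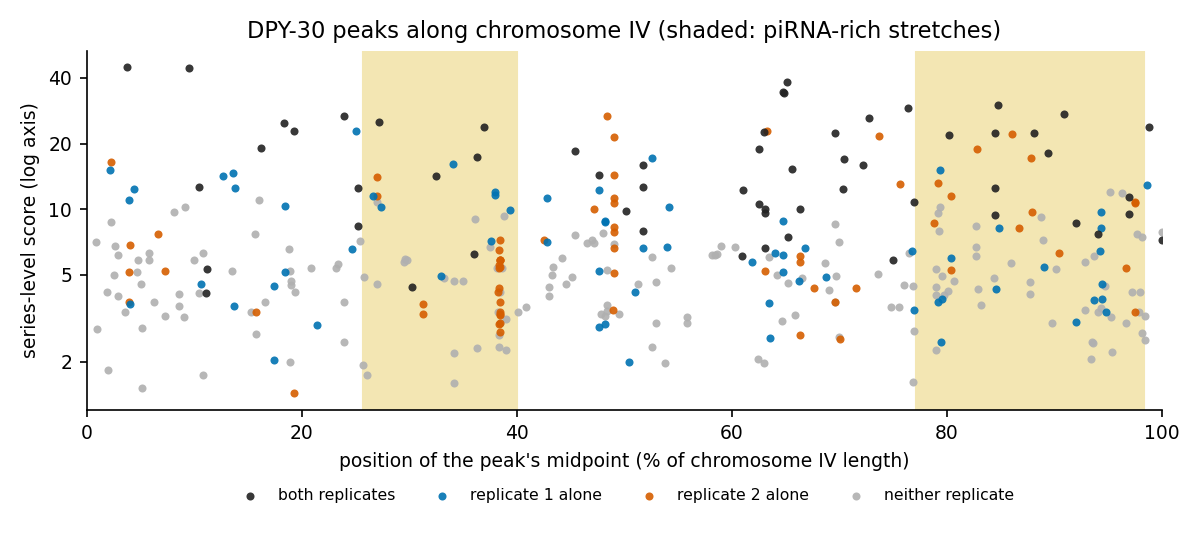
Series-level score (log axis) of each of the 369 peaks against the position of its midpoint, as a percentage of the length of chromosome IV, coloured by the replicate lists in which a peak overlapped it, with the piRNA-rich stretches shaded. The 2 highest peaks, at scores of 44.9 and 44.6, sit outside the shaded stretches in the left part of the chromosome, and a vertical column of replicate 2 peaks of low score stands near the right edge of the left stretch.

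Support by the replicates divided the IV peaks into 4 classes. A series-level peak counted as supported where it shared at least 1 bp with a peak of a replicate. Of the 369 peaks, 59 were found in both replicates, 67 in replicate 1 alone, 66 in replicate 2 alone and 177 in neither. The share in both was 16.0% on IV (12.4 to 20.1%), against 17.1% on the other autosomes (225 of 1317, 15.1 to 19.2%) and a background of 18.1% over all 6 chromosomes. The difference between IV and the other autosomes did not pass the threshold of 0.05 (two-sided Fisher's exact p = 0.694, adjusted p = 0.81). The other classes also lay near the background: 18.2% of IV peaks were in replicate 1 alone (background 17.7%), 17.9% in replicate 2 alone (background 15.1%) and 48.0% in neither (background 49.1%).

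**Figure D2:**
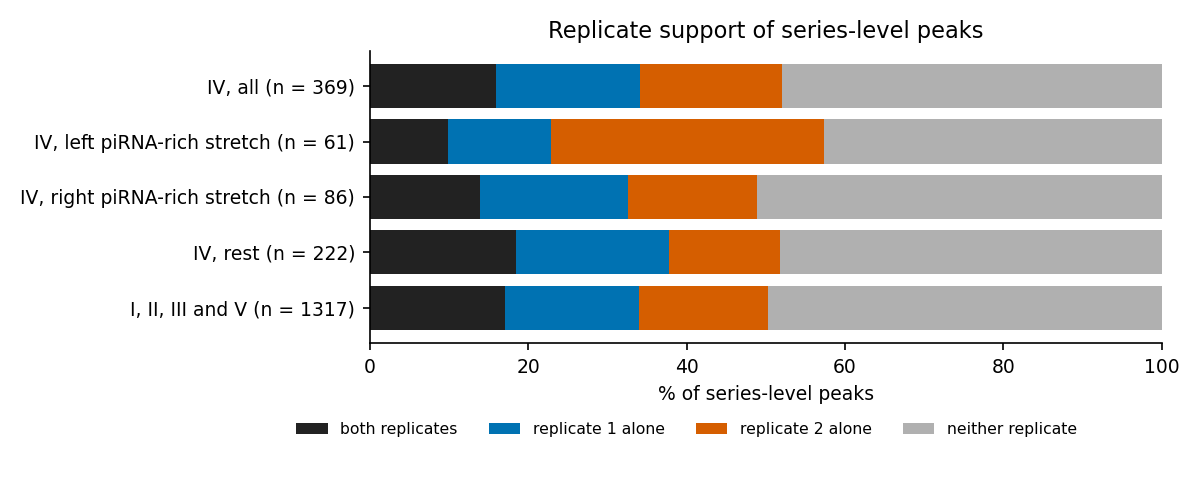
Percentage of series-level peaks found in both replicates, in replicate 1 alone, in replicate 2 alone and in neither, for all of IV, the left and right piRNA-rich stretches, the rest of IV and the other autosomes. The bars for all of IV and for I, II, III and V are alike, with 16.0% and 17.1% found in both, whereas in the left stretch 34.4% of peaks were found in replicate 2 alone.

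The classes differed in width and score. The 59 peaks of both replicates reached a median score of 14.3 (quartiles 9.55 and 22.7) at a median of 526 bp in width, and they held 35.1% of all IV bases under peaks. Peaks of replicate 1 alone were scored 6.40 at the median and spanned 331 bp, and none was wider than 592 bp. Peaks of replicate 2 alone were scored 5.82 at the median and spanned 291 bp but reached 5040 bp. The 177 peaks of neither replicate had medians of 4.55 in score and 198 bp in width, and the highest of them scored 12.0. Among the 93 best-scoring IV peaks, with scores of 9.61 and above, 44 were found in both replicates and 8 in neither. Among the 92 lowest, with scores up to 3.75, 0 of 92 were found in both, which allows a share of up to 3.93% (exact 95% interval), and 63 were found in neither. The lists belong to the same series, and which libraries gave the series-level list was not stated. Score and support therefore cannot be taken as independent measures. Width and support are not independent either, because a wider peak more easily meets the rule of 1 bp of overlap.

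**Figure D3:**
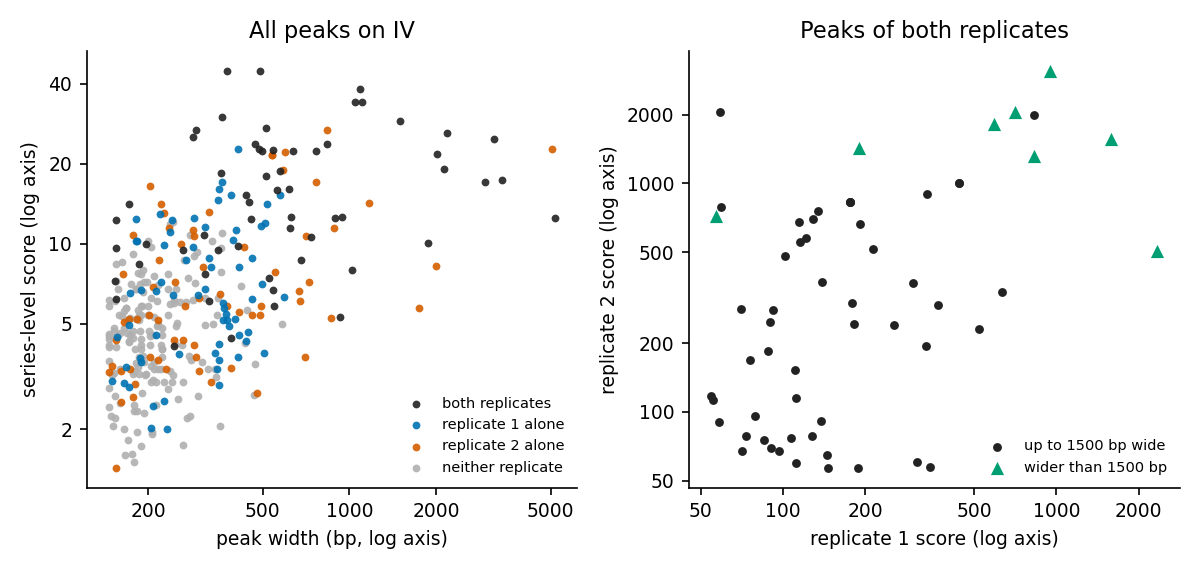
Left, series-level score against width (both log axes) for the 369 peaks, coloured by replicate support. Right, the score in replicate 2 against the score in replicate 1 (both log axes) for the 59 peaks found in both, with peaks wider than 1500 bp as triangles. Peaks of both replicates fill the upper right of the left panel, and most of the 8 triangles lie toward the upper right of the right panel.

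Where both replicates had a peak, the midpoints mostly lay close together, although overlap with the same series-level peak itself limits their distance. Between the best-scoring peaks of replicates 1 and 2, the median distance of the midpoints was 35 bp (quartiles 11.2 and 130 bp). It was at most 100 bp at 42 of the 59 series-level peaks. Neighbouring series-level peaks sometimes overlapped the same replicate peaks, so some pairs count more than once, here and in the correlations below. The largest distance, 2850.5 bp, was at the series-level peak from 4421693 to 4421877. There the best-scoring replicate 2 peak was the adjoining broad one of 5368 bp, while the replicate 1 peak was 317 bp wide. The replicate 1 peak was a median of 1.10 times as wide as the series-level peak and the replicate 2 peak 1.03 times. The order of the scores was only partly alike between the replicates. The Spearman correlation between the replicate scores was 0.41 over the 59 peaks, and 0.27 over the 51 of them no wider than 1500 bp. Series-level scores correlated with those of replicate 1 at 0.53 and with those of replicate 2 at 0.25, again as descriptions of peaks that share libraries.

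The strongest IV peaks stood below those of X and were not the highest of the autosomes. None of the 31 highest-scoring peaks of the whole list was on IV or any other autosome, and the first IV peak held rank 39. The highest score was 60.1 on III, 53.2 on V, 45.5 on II, 44.9 on IV and 34.0 on I. Among the 50 highest-scoring autosomal peaks 9 were on IV (18%), and among the first 100 there were 24, while IV held 21.9% of all autosomal peaks. The 12 IV peaks of highest score among those found in both replicates scored 24.9 to 44.9. They were spread along the chromosome, with 4 to the left of both stretches, 1 in the left stretch, 5 between the stretches and 2 in the right stretch.

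A pair of narrow peaks near the left end had the highest scores on IV. The peak from 654730 to 655104 (WormBase WS220 coordinates, as throughout; 375 bp) had a series-level score of 44.9, with 178 in replicate 1 and 300.0 in replicate 2. The peak from 1659043 to 1659530 (488 bp) scored 44.6. Its replicate scores were 213 and 518. They held ranks 39 and 40 of 2101 in the series-level list, ranks 265 and 216 of 882 in replicate 1 and ranks 223 and 171 of 817 in replicate 2.

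The next 3 peaks lay together within 77.4 kb in the segment between the stretches and had nearly the same width. The peak from 11400310 to 11401401 (1092 bp) scored 38.2, and 631 in replicate 1 and 335 in replicate 2. The peak from 11324048 to 11325096 (1049 bp) scored 34.3, and 521 in replicate 1 and 231 in replicate 2. The peak from 11339651 to 11340756 (1106 bp) scored 34.2, and 368 in replicate 1 and 293 in replicate 2. Their ranks were 76, 94 and 135 of 882 in replicate 1 and 205, 263 and 225 of 817 in replicate 2. They belonged to the 1 Mb window from 11 to 12 Mb, in which 10 of 31 peaks were found in both replicates. This was the largest number of any window. By share the window from 10 to 11 Mb stood higher, with 4 of 11, and the share over all of IV was 16.0%.

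The other 7 of the 12 peaks lay in both stretches, between them and left of them. The peak from 14824920 to 14825279, the highest in the right stretch at 29.95, scored 344 in replicate 1 and 57.5 in replicate 2, close to the lowest score of that list (50.0). The peak from 15895716 to 15896228, also in the right stretch, scored 27.3 and held rank 345 of 882 in replicate 1 (score 135) and rank 128 of 817 in replicate 2 (score 756). The peak from 13360492 to 13361989 (1498 bp) scored 29.0 and was strong in both, at 829 in replicate 1 and 1989 in replicate 2. The peak from 4184782 to 4185074 scored 26.8 but was weak in both, at 79.1 and 96.4, each below the median of its list (99.1 and 113.8). The peak from 4749866 to 4750150, the highest in the left stretch at 25.2, scored 144 in replicate 1 and 64.7 in replicate 2. The last members were broad peaks from 12730490 to 12732672 (score 26.2) and from 3206328 to 3209498 (score 24.9). At 3206328 the ranks were 29 of 882 in replicate 1 (score 1587) and 60 of 817 in replicate 2 (score 1559). At 12730490 the replicate 1 list had 5 peaks of at most 484 bp, where replicate 2 had 1 peak of 2215 bp.

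Broad peaks were few, and their share on IV was not called different from that on the other autosomes. On IV 11 of 369 peaks were wider than 1500 bp (2.98%), against 48 of 1317 on the other autosomes (3.64%, background over all chromosomes 3.33%; Fisher's exact p = 0.632, adjusted p = 0.81). They nevertheless held 22.3% of the bases under IV peaks. Of the 11, 8 were found in both replicates, 3 in replicate 2 alone and 0 in replicate 1 alone or in neither. On the other autosomes 43 of the 48 were found in both.

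The highest IV score in each replicate list belonged to a broad peak. The widest, from 4416419 to 4421607 (5189 bp), scored 12.5 in the series-level list (rank 369 of 2101), 706 in replicate 1 (rank 67 of 882) and 2057 in replicate 2 (rank 39 of 817). The peak from 2828431 to 2830565 (2135 bp) scored 19.1 and had 949 in replicate 1 and 3115 in replicate 2, where it held rank 2 of 817. The highest IV score in replicate 1, 2340, belonged to the peak from 14032454 to 14034461 in the right stretch (2008 bp, series-level score 21.8), which had 505 in replicate 2. In the left stretch the peak from 6357737 to 6361121 (3385 bp) scored 17.5, with 593 and 1812 in replicates 1 and 2. The peak from 12316344 to 12319299 (2956 bp) scored 17.1, with 830 and 1323. The remaining one of the 5 widest, from 11070853 to 11075892 (5040 bp, score 22.8), scored 1083 in replicate 2, while the nearest replicate 1 peak was 31555 bp away.

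Several other IV peaks of high series-level score were seen in a single replicate. The highest of these, from 8468481 to 8469319 (839 bp, score 26.9), had a replicate 2 score of 1045, at rank 87 of 817, and no replicate 1 peak within 35330 bp. The peak from 15059040 to 15059634 in the right stretch scored 22.2 and 376 in replicate 2. In replicate 1 alone the highest was the peak from 4390377 to 4390787 (22.8, replicate 1 score 141). Next came those from 9196176 to 9196536 (17.1, replicate 1 score 57.4) and from 5966973 to 5967323 in the left stretch (16.1, replicate 1 score 97.4). Their replicate 1 ranks were 334, 756 and 451 of 882, in a list whose lowest score was 50.0. The replicate peaks behind the 2 single-replicate classes had similar medians relative to their lists, 96.5 in replicate 1 (list median 99.1) and 105 in replicate 2 (list median 113.8). Their highest scores were 495 in replicate 1 and 1083 in replicate 2. Of the peaks found in neither replicate, the highest were those from 16656247 to 16656490 (12.0) and from 16845430 to 16845667 (11.8), both in the right stretch, and from 2805527 to 2805888 (11.0).

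Along the chromosome the peaks were uneven. Over the 17 complete windows of 1 Mb the series-level list held 11 to 38 peaks, with a median of 19. The fullest were the windows from 6 to 7 Mb (38 peaks), 8 to 9 Mb (33) and 11 to 12 Mb (31). The replicate 1 list held 4 to 17 peaks per window and the replicate 2 list 2 to 28, both with a median of 8. Replicate 1 was highest from 11 to 12 Mb (17 peaks), where replicate 2 had 19. Replicate 2 was highest from 6 to 7 Mb (28 peaks), where replicate 1 had 8. The largest empty interval of the series-level list, 401 kb, lay from 9773724 to 10174983. In the same region replicate 1 had no peak over 1180 kb, from 9477841 to 10658152, and replicate 2 had none over 893 kb, from 9764948 to 10658153, although the series-level list had peaks in part of that interval.

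**Figure D4:**
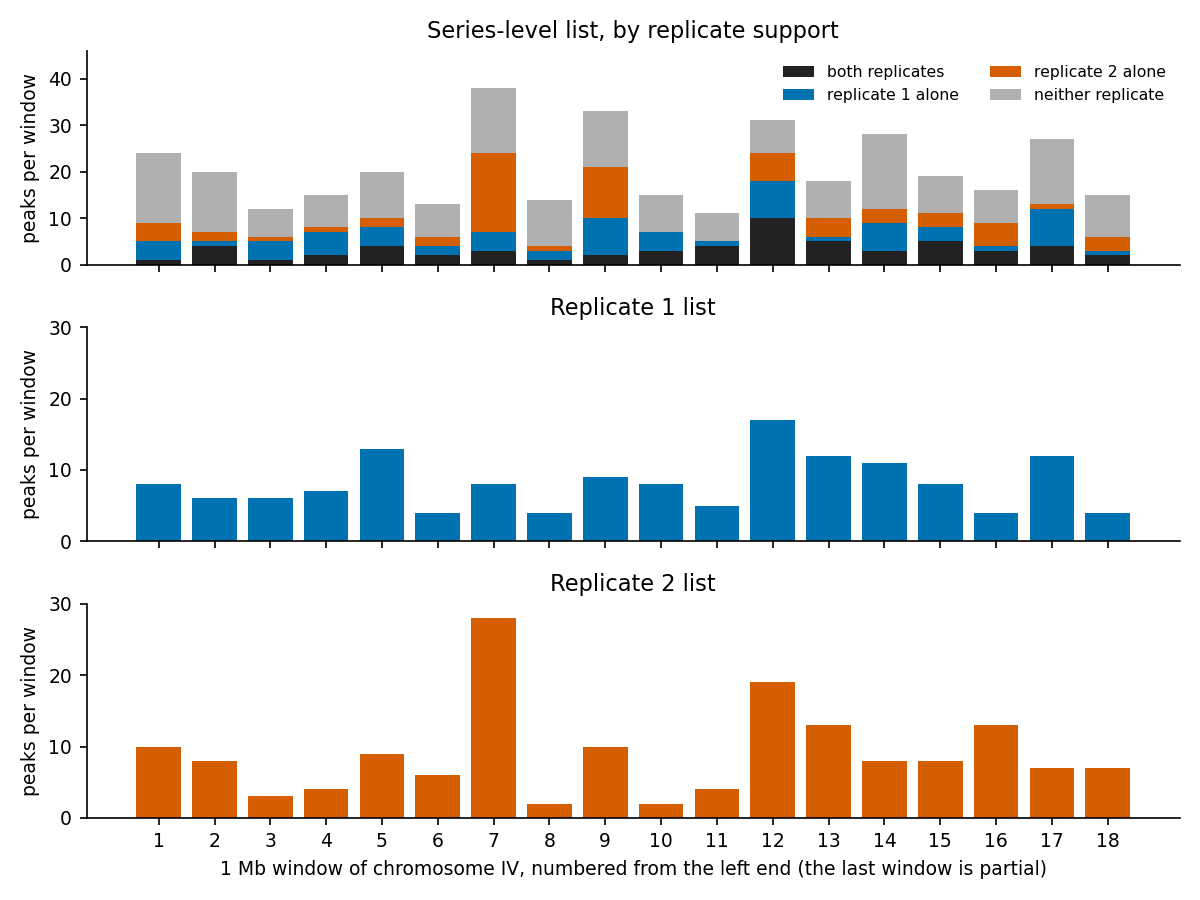
Number of peaks per 1 Mb window of chromosome IV, numbered from the left end, in the series-level list (top, coloured by replicate support), the replicate 1 list (middle) and the replicate 2 list (bottom). The 7th window rises to 38 peaks in the series-level list and 28 in replicate 2 but holds 8 in replicate 1, and the 12th window is high in all 3 lists.

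The piRNA-rich stretches together held slightly more peaks than their length, and the excess did not pass the threshold. They held 147 of the 369 peaks (39.8%, 34.8 to 45.0%), at 23.7 peaks per Mb, against 19.7 per Mb on the rest of IV. Their share of length was 35.4% (exact binomial p = 0.0816, adjusted p = 0.512). The left stretch held 61 peaks (16.5%, against 14.3% of length, exact binomial p = 0.233, adjusted p = 0.539). The right stretch held 86 (23.3%, against 21.2% of length, exact binomial p = 0.308, adjusted p = 0.539). The same fractions of length on the other autosomes held 36.8% of their peaks, ranging from 32.9% on I to 43.8% on II, so the share on IV lay within the range of the other autosomes.

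Scores in the stretches were close to those of the rest of IV, and the share of peaks found in both replicates was lower without passing the threshold. The median score was 5.39 in the stretches and 5.82 on the rest, and the median width was 263 bp against 225 bp. In the stretches 18 of 147 peaks were found in both replicates (12.2%, 7.42 to 18.7%), against 41 of 222 on the rest of IV (18.5%, 13.6 to 24.2%; background 18.1%). No call was made on this difference (Fisher's exact p = 0.146, adjusted p = 0.512). The segment between the stretches, which holds the peaks near 11.3 Mb, had the highest share among the 4 long segments, 28 of 135 (20.7%). The left stretch had the lowest, 6 of 61 (9.84%), but 20 of these 61 peaks lay in 1 dense run, described below, where replicate 1 had 0 peaks. Without that run the stretches together had 18 of 127 peaks found in both replicates (14.2%). The rest of IV had 18.5% (Fisher's exact p = 0.373, unadjusted).

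The replicate lists held unlike shares of their IV peaks in the left stretch. Replicate 2 had 40 of its 161 IV peaks there (24.8%) and replicate 1 had 18 of its 146 (12.3%), while the right stretch held 36 (22.4%) and 30 (20.5%). Against the share of length, the left stretch was 1.74 times as full as its length in replicate 2 (exact binomial p = 0.000408) and 0.863 times in replicate 1 (exact binomial p = 0.556), both unadjusted. For both stretches together the ratios were 1.33 in replicate 2 (exact binomial p = 0.00223) and 0.928 in replicate 1 (exact binomial p = 0.546). Of the 40 replicate 2 peaks in the left stretch, 18 came from the same dense run. Without it, a comparison chosen after the data were seen, replicate 2 had 22 of 143 peaks in the left stretch (15.4%, ratio 1.08, exact binomial p = 0.72), and the series-level ratio was 0.822 (exact binomial p = 0.193). The difference between the replicates was not itself tested.

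This dense run was the only one on IV and 1 of 11 in the series-level list, counting as dense at least 10 series-level peaks with gaps of at most 5000 bp. It held 20 peaks, 5.42% of those on IV (other autosomes, 11.6% in 8 such runs), over 17.9 kb, from the peak at 6711592 to 6712080 (score 5.39) to the peak at 6729169 to 6729499 (score 3.01). Scores ran from 2.34 to 7.2 with a median of 3.95, below the IV median of 5.65, and widths from 146 to 725 bp. Replicate 2 had 18 peaks in the run, with scores of 50.4 to 194 and a median of 84.9, below its list's median of 113.8. Replicate 1 had 0 peaks there, and its nearest was 62.7 kb away. Of the 20 series-level peaks, 16 overlapped a replicate 2 peak and 4 overlapped neither replicate.

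**Figure D5:**
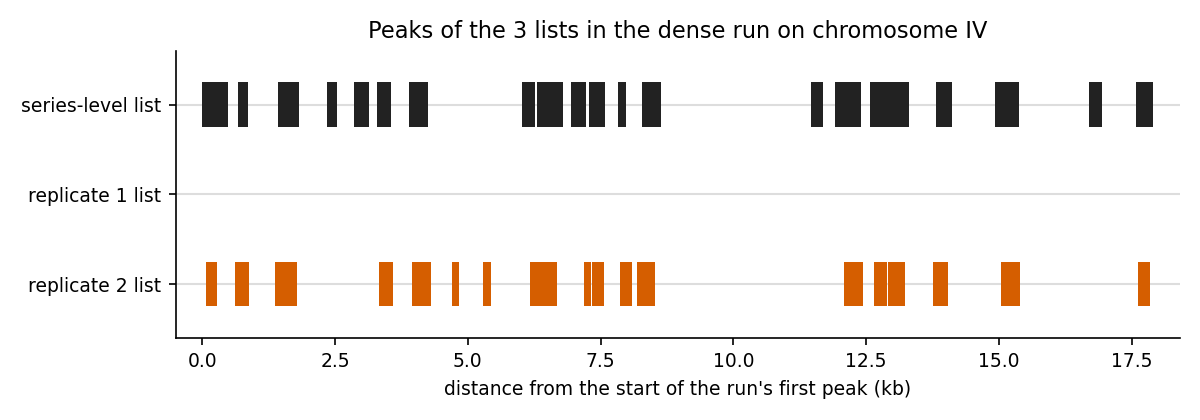
Peaks of the series-level, replicate 1 and replicate 2 lists across the dense run, drawn to scale as boxes at their distance in kb from the start of the run's first peak. The series-level list shows 20 boxes and replicate 2 shows 18 at largely the same places, while the replicate 1 line is empty.

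A smaller run between the stretches had the same pattern. From 8572760 to 8581477, a region singled out after its values were seen, 9 series-level peaks spanned 8.72 kb with scores of 5.09 to 21.5. Of these, 8 overlapped one of the 4 replicate 2 peaks there and 0 overlapped replicate 1, whose nearest peak was 139.6 kb away. These 2 runs held 24 of the 66 IV peaks found in replicate 2 alone. Because replicate 1 had 0 peaks in either run, neither could hold a peak found in replicate 1 alone. The opposite case was smaller. From 16511851 to 16519268 in the right stretch, 4 series-level peaks met 3 peaks of replicate 1 and 0 of replicate 2.

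Many IV peaks had close neighbours. Of the 369, 188 (50.9%), the runs above included, lay within 5000 bp of another series-level peak. They formed 44 pairs, 13 groups of 3 and 10 groups of 4 or more. The replicate 1 list had 36.3% of its IV peaks in such groups, the largest of 5 peaks, and replicate 2 had 52.2%, the largest of 18. The median gap between neighbours was 20.9 kb in the series-level list. On the other autosomes it ranged from 11.2 kb on III to 26.9 kb on V. Gaps of at most 5000 bp made up 32.9% of the gaps on IV, within the range from 30.8% on I to 43.0% on III.

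From the side of the replicates, the share of IV peaks found again in the other library was near that of the other autosomes in replicate 1 and lower in replicate 2, a difference that was not tested. On IV, replicate 2 had a peak at 67 of the 146 replicate 1 peaks (45.9%, 37.6 to 54.3%), against 249 of 530 on the other autosomes and a background of 47.3%. Replicate 1 had a peak at 61 of the 161 replicate 2 peaks of IV (37.9%, 30.4 to 45.9%), against 43.9% on the other autosomes and a background of 46.3%. The 161 include the 18 replicate 2 peaks of the dense run and the 4 of the run from 8572760 to 8581477, where replicate 1 had 0 peaks. Whether these runs account for the lower share on IV was not tested. Dense runs were kept in the count on the other autosomes as well. The shared peaks scored higher, with medians of 128 against 80.9 for unshared peaks in replicate 1 and 240 against 78.2 in replicate 2. On the other autosomes the medians were 155 against 75.6 and 194 against 87.4. Shared peaks on IV were also wider, at medians of 484 against 309 bp in replicate 1 and 472 against 256 bp in replicate 2. A wider peak more easily meets the rule of 1 bp of overlap.

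Some replicate peaks had no counterpart in the series-level list. In replicate 1 there were 21 (125 of 146 were found, 85.6%, background 85.5%), and in replicate 2 there were 38 (123 of 161, 76.4%, background 82.9%). In each replicate 5 of these overlapped a peak of the other. One of them was at the left tip of the chromosome. Replicate 1 had a peak from base 1 to 239 (score 73.8) and replicate 2 a peak from base 1 to 223 (score 282), whereas the first series-level peak began at 143837. On I, II, V and X, by contrast, all 3 lists had a peak within the first 100 bp. Chromosome III was like IV, with its first series-level peak at 179026. The other shared peaks missing from the series-level list included those near 13549326 (59.5 in replicate 1 and 216 in replicate 2) and near 14781272 (76.6 and 208), both in the right stretch. Another, near 17492323 by the right tip, scored 90.4 in replicate 1 and 90.9 in replicate 2. At the right tip the last peaks of all 3 lists lay within 1 kb of each other. They ended at 17493824 in the series-level list, at 17492945 in replicate 1 and at 17492930 in replicate 2.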

How the data were processed

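The authors deposited peak lists whose entries give a position and a score, on the WormBase WS220 build, per the file headers. The files name MACS v2 as the caller of the series-level list and MACS as that of the replicate lists. BWA and the ce10 build are named per the submitters' processing notes. The control, the threshold, the read depth, any pooling of replicates and the meaning of the score were not given in the sources used here. Scores of different lists are therefore on unknown scales and are printed with no comparison of their size, ranks being given with the length of the list, and the intervals on shares account for counting error alone.

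Peaks were compared with Python 3.11.15, numpy 2.4.6, pandas 2.3.3 and scipy 1.17.1, and drawn with matplotlib 3.10.9. A chromosome's length was taken as the furthest peak end in any of the 3 lists, a peak's midpoint gave its place, and 2 mitochondrial peaks were left out. Counts were set against shares of length by exact binomial tests, two-sided, and pairs of shares with Fisher's exact test, with exact (Clopper-Pearson) 95% intervals and Benjamini-Hochberg adjustment over 7 tests. The functions were tested on simulated lists. Peaks are not replicates, so each p-value describes 1 list.

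The peaks, the stretches, the dense run and the width for broad peaks were chosen with earlier results of these data known. Named peaks were the 12 of highest score found in both replicates, the 3 highest of each other support class and of each stretch, the 5 widest, and the first and last of a dense run. Others were named after their values were seen. Alternatives varied the overlap, the edges, the peaks counted and the list.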

Additional observations from a re-analysis of the deposited data

How the results depend on the processing

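None of the 7 tests passed 0.05, and 51 of 53 alternatives did not pass it either, unadjusted. The 2 that did used the replicate 2 list, with ratios to length of 1.33 for both stretches (exact binomial p = 0.00223) and 1.74 for the left one. A replicate was left out by using the list of the other, so that caller and score changed as well. The share of IV then gave ratios of 0.947 and 1.13, both stretches 0.928 and 1.33, the left stretch 0.863 and 1.74, and the right stretch 0.972 and 1.06. With support by 1 replicate in place of both, IV minus the other autosomes was 0.13 and 0.466 percentage points. The stretches minus the rest of IV then gave -9.27 and 3.62 points, and broad peaks -2.07 and -1.15 points. In all, 16 alternatives changed direction, and the cause was not tested. Among peaks of both replicates the ratios were 0.888 for IV, 0.861 for both stretches, 0.712 for the left and 0.962 for the right. In the better-scoring 50% they were 0.98 for IV and 0.983 for the left stretch. The left stretch stood at 0.993 with peaks within 1000 bp merged and at 0.822 without the dense run. Without dense runs, IV minus the other autosomes in replicate support was 0.067 points. No paired analysis was possible because each result comes from a peak list and not from a test over samples. Unknown depth limits all counts.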
